A study of Mus musculus with 6 samples.

Results

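The receptors described here are G protein-coupled receptors whose genes carry the family names Gpr (mostly orphan receptors, with no settled ligand), Adgr (adhesion receptors), P2ry (nucleotide receptors and their relatives) and Lpar (lysophosphatidic acid receptors). They were taken by symbol from the deposited gene table: Gpr or P2ry followed by digits, Adgr by a letter and a digit, and Lpar by a digit. Gpr84, Gpr132, Gpr183 and Adgre1 were left out. This gave 86 of the 16511 genes in the table, of which 51 are Gpr, 21 Adgr, 8 P2ry and 6 Lpar genes. Another 5 genes whose symbols carry a further letter, among them P2ry10b and Gpr137b, are not members.

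RNA was sequenced from B lymphocytes enriched from mouse spleen by magnetic negative selection, a method that depletes other cells and leaves the B cells unlabelled. There were 3 libraries labelled GPR40-KO and 3 labelled GPR40-WT. GPR40 is the free fatty acid receptor encoded by Ffar1. The series calls the mutant mice GPR40-BKO in its design text and GPR40-KO in its sample labels; the labels state no allele, Cre driver, strain or age. They do not say whether each library came from its own animal, so a p-value here reflects only library-to-library spread, possibly technical in part. Depth lay between 14907080 and 15461425 estimated counts per library.

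Ffar1 went against the labels. Replicates 1, 2 and 3 labelled KO held 273, 392 and 304 counts of it, while all 3 labelled WT held 0. Every direction below is therefore that of the label, and the libraries are called KO-labelled and WT-labelled. Cell type markers also differed between the labels. The summed level of 13 neutrophil markers was 474 to 1079 TPM (a level scaled to gene length and depth) in KO-labelled libraries and 3310 to 36375 TPM in WT-labelled ones. That of 13 monocyte and macrophage markers was 1644 to 3041 TPM in KO-labelled libraries and 4216 to 9867 TPM in WT-labelled ones. For 14 T and NK cell markers the sums were 175 to 252 TPM in KO-labelled libraries and 567 to 1107 TPM in WT-labelled ones, and for 10 B cell markers they were 12033 to 13804 TPM in KO-labelled libraries and 7150 to 11234 TPM in WT-labelled ones. Of the T and NK cell sums, Ccl5 alone held 153 to 214 TPM in KO-labelled libraries and 478 to 641 TPM in WT-labelled ones. By the test described below, 5 of the 10 B cell markers were higher and none lower in KO-labelled libraries. Over all tested genes 4.55% were higher and 4.81% lower. Lower in KO-labelled libraries were 2 of 13 neutrophil and 4 of 13 monocyte and macrophage markers. So were 2 of 12 tested T and NK cell, 3 of 9 dendritic cell and 1 of 4 platelet markers. With the replicate number as a block, 7.96% of all tested genes were higher and 12.8% lower. The counts were then 6 higher and 1 lower (Fcer2a, log2 fold change -0.51, blocked adjusted p = 0.00384) for B cell markers. They were 7 lower for neutrophil, 12 for monocyte and macrophage, 6 for T and NK cell, 6 for dendritic cell and 3 for platelet markers. Erythroid markers summed to 1756 to 7979 TPM in KO-labelled libraries and 3500 to 42039 TPM in WT-labelled ones, with none of 10 passing. None of the listed neutrophil or macrophage markers was at 0 in all KO-labelled libraries, and Gzma was the T and NK cell marker that was. In such enriched samples, fewer cells of a type and less RNA per cell cannot be told apart. The part of these cells in the differences below was not tested.

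G protein-coupled receptors span the plasma membrane and pass the binding of a ligand on to heterotrimeric G proteins. In lymphoid tissue, receptors for lysophospholipids, nucleotides and protons report on damaged or metabolically active surroundings, and act on the migration and activation of lymphocytes and phagocytes. Adhesion receptors have long extracellular parts that bind matrix or partner cells, and several mark myeloid cells.

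Promoters of 4 of the genes that the results turn on are shown, a pair that was higher and a pair that was lower in KO-labelled libraries. Each runs from 250 bases before to 50 bases after an annotated start, from RefSeq on GRCm38.p6, and is written in the direction of transcription. The pair that was higher is Lpar2 at chr8:69822315-69822614, plus strand, and Gpr18 at chr14:121915839-121916138, minus strand. The pair that was lower is Gpr141 at chr13:19824208-19824507 and Adgrl2 at chr3:148954586-148954885, both on the minus strand; the Adgrl2 gene has annotated starts farther upstream as well. Capitals mark matches to any of 5 motifs of B cell and myeloid transcription factors.
Lpar2: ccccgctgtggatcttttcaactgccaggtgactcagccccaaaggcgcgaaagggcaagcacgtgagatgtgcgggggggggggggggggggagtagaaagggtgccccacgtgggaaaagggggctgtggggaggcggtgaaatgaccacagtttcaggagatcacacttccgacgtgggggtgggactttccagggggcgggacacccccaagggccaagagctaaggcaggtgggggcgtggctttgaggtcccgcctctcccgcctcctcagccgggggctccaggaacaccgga
Gpr18: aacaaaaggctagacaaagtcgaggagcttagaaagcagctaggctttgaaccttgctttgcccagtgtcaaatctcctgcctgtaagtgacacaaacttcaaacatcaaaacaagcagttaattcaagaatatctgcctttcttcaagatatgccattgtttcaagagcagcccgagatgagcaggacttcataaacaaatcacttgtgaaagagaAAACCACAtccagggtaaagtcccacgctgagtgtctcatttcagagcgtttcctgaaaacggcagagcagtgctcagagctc
Gpr141: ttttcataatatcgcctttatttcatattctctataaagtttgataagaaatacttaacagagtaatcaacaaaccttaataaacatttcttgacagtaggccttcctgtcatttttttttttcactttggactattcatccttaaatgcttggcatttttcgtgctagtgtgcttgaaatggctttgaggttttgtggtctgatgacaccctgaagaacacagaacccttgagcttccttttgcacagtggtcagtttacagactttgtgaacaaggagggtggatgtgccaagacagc
Adgrl2: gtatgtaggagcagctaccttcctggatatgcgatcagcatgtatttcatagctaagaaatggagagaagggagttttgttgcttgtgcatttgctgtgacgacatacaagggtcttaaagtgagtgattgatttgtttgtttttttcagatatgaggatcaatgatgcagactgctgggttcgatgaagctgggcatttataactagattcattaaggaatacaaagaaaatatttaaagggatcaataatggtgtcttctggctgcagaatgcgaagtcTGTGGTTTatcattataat

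The motifs were searched on both strands: ATGCAAAT (the octamer bound by Oct proteins), GAGGAAGT (a site of PU.1-type ETS factors), an EBF palindrome (TCCC and GGGA around 2 free bases), TTNNGCAA (a C/EBP-type site) and TGTGGTTT (a RUNX site). They are held by 1.74%, 3.20%, 0.904%, 10.8% and 1.78% of the 32851 promoters of the same length, in that order. The Gpr18 and Adgrl2 promoters, which belong to genes of opposite direction, each held 1 RUNX match, at base 218 of the Gpr18 and base 282 of the Adgrl2 promoter, counted from the 5′ end shown. The windows of Lpar2 and Gpr141 held none of these letters. Both listed P2ry2 promoters, which overlap, held the same C/EBP match, and the windows of Gpr146, Adgrg6, Gpr35 and Adgrg3 held no match. Promoters were listed for 9 of the 11 genes that passed the test. Among the 4 promoters shown, base composition ran from 66.0% G or C with 15 CpG in Lpar2 to 37.3% with 2 CpG in Gpr141, beside a median of 52.7% and 7 CpG over all promoters.

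Of the 86 genes, 38 had a mean over the 6 libraries above 1 TPM and 48 were at or under it. The group means were above 1 TPM for 35 genes in KO-labelled libraries and for 39 in WT-labelled ones. Adgrg3, P2ry2, Lpar3, Adgrg5 and P2ry1 were above it only in the mean of WT-labelled libraries, and Adgrf5 only in that of KO-labelled libraries. The genes next to the threshold were Adgrg5 and Lpar3, at 1.10 and 1.17 TPM, and P2ry1 and Adgrf5, at 0.760 and 0.743 TPM.

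The most abundant were Adgre5 at 161 ± 11.9 TPM (SD, n = 3) in KO-labelled libraries and 141 ± 16.3 TPM (SD, n = 3) in WT-labelled ones, then Gpr18, P2ry10 and Gpr108. In all, 15 genes had a mean above 10 TPM, namely Adgre5, Gpr18, P2ry10, Gpr108, Gpr174, Gpr155, Gpr107, Lpar6, Gpr171, Gpr65, Gpr137, Gpr146, Gpr141, Gpr89 and Gpr180. The means of Gpr174, Gpr155, Gpr107, Lpar6 and Gpr171, which follow each other in this order, lay between 34.5 and 38.0 TPM, closer together than the 6 libraries of any of them. Another 23 genes lay between 1 and 10 TPM, among them P2ry6, Gpr157, Lpar2, P2ry13, Gpr19, Lpar5, Adgre4, Adgrg6, Adgrl1, Adgrl2, Gpr55, Gpr162, Gpr35, P2ry14, Adgrg1, Adgrg3, Gpr160, P2ry2, Gpr34, P2ry12, Lpar3 and Adgrg5.

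**Figure D1:**
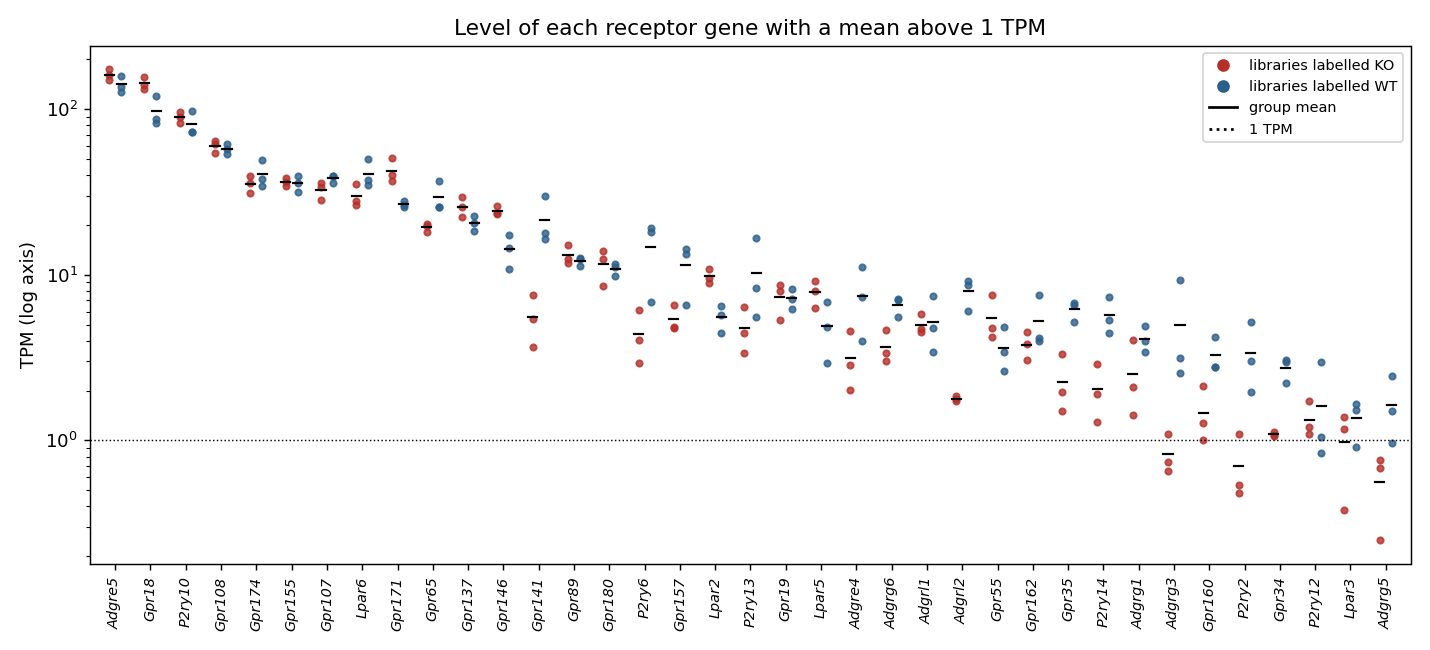
TPM (log axis) of 37 of the 38 receptor genes with a mean above 1 TPM, ordered by that mean. Dots are the 3 KO-labelled libraries (left of each pair) and the 3 labelled WT (right), black bars the group means, and the dotted line 1 TPM; the group means of Adgrg3 and P2ry2 lie at 0.827 and 0.703 TPM in KO-labelled libraries and at 5.0 and 3.37 TPM in WT-labelled ones.

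The KO-labelled libraries were compared with WT-labelled ones by edgeR's quasi-likelihood test on the counts, with p-values adjusted by the Benjamini-Hochberg method over 12234 genes and a threshold of 0.05. A low-count filter passed 48 of the 86 receptor genes. This filter keeps a gene that is high enough in 1 group alone, so these 48 are not a neutral sample of the 86. Of the 48, 4 were higher in KO-labelled libraries (Lpar2, Gpr146, Gpr171 and Gpr18), where 4.55% of all tested genes were higher. A further 7 were lower (among them Adgrg3, P2ry2, Adgrl2, Gpr141, Gpr35 and Adgrg6), where 4.81% of all tested genes were lower. This is 8.33% and 14.6% of the 48. In either direction 11 were called, where 9.37% of all tested genes were, and the other 37 did not pass. The median log2 fold change of the 48 was -0.47, beside 0.01 over all tested genes. Counts of genes whose TPM did not overlap between the labels were 4 higher and 18 lower in KO-labelled libraries, where 13.1% and 17.6% of all tested genes were so.

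Of the 15 above 10 TPM, 3 were higher in KO-labelled libraries and 1 lower, and 5 had a log2 fold change below 0. Of the 23 between 1 and 10 TPM, 1 was higher and 6 were lower, and 19 had a log2 fold change below 0. Over all tested genes 4.55% were higher, 4.81% were lower and 48.5% had a log2 fold change below 0. These shares were not taken for genes of the same range of TPM. A fit with the replicate number of the labels as a block called 18, the 11 above and, all lower in KO-labelled libraries, Lpar6, Gpr65, P2ry6, Gpr157, P2ry13, Adgre4 and P2ry14. That makes 4 higher and 14 lower, where the blocked fit called 7.96% of all tested genes higher and 12.8% lower. Without 1 library the count of receptor genes called was 5, 1 and 5 without KO-labelled replicate 1, 2 and 3, and 4, 15 and 5 without WT-labelled replicate 1, 2 and 3.

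**Figure D2:**
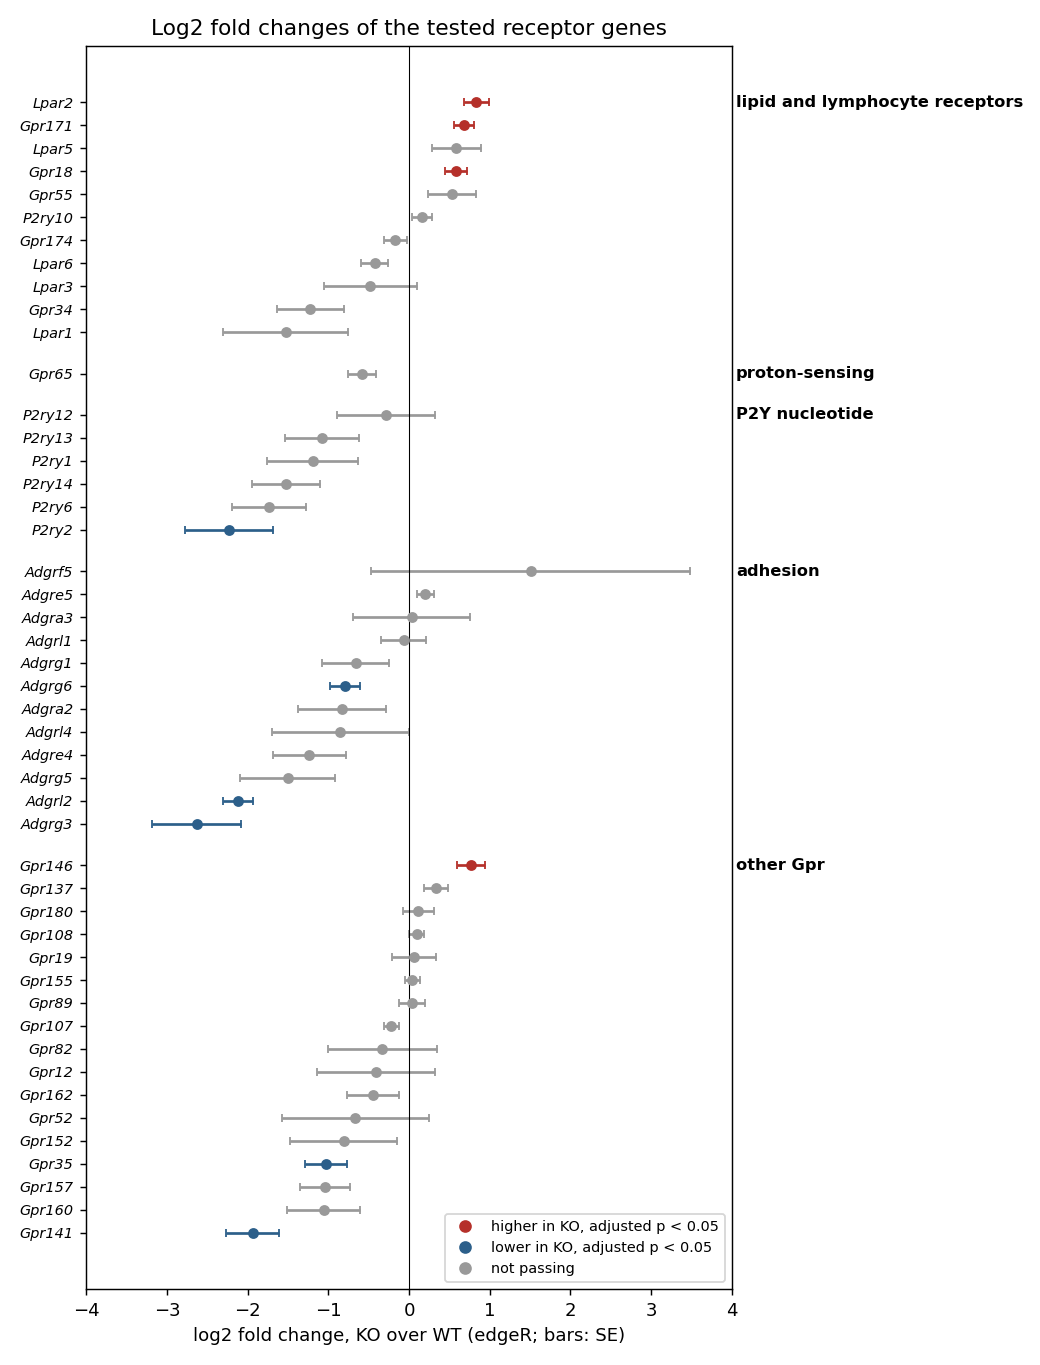
Log2 fold change (KO over WT labels, edgeR) with its standard error for 47 of the 48 tested receptor genes, grouped by the kind of receptor. Red genes were higher and blue genes lower in KO-labelled libraries at an adjusted p under 0.05, from 0.84 for Lpar2 to -2.63 for Adgrg3; grey genes did not pass.

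Among 12 receptors of lysophospholipids and other lipids and of lymphocytes, 3 of the 11 tested rose in KO-labelled libraries, none fell and 8 did not pass. Of all tested genes, 4.55% rose and 4.81% fell. The receptors were grouped by kind by hand, here and below, and the counts per group depend on that grouping. Lpar2, a receptor for lysophosphatidic acid, had 10.8, 9.61 and 8.89 TPM in KO-labelled libraries, against 5.71, 6.47 and 4.47 TPM in WT-labelled ones. Its groups did not overlap, and its log2 fold change was 0.84 ± 0.15 (SE, n = 3 per label, edgeR adjusted p = 0.0158). Lpar2 lies on chromosome 8 at 69822565 to 69831102 (RefSeq, GRCm38), and overlaps no exon of another gene in the GENCODE annotation of that build. It was not called without KO-labelled replicate 1 or 2 (adjusted p up to 0.0683).

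Gpr18, an orphan receptor of lymphocytes for which lipid ligands have been proposed, had 140, 155 and 133 TPM in KO-labelled libraries, against 82.8, 121 and 87.5 TPM in WT-labelled ones. All KO-labelled libraries were higher than all labelled WT, and WT-labelled replicate 2 came nearest. Its log2 fold change was 0.58 ± 0.13 (SE, edgeR adjusted p = 0.0365). The call was lost without any 1 KO-labelled library, or WT-labelled replicate 1 or 3 (adjusted p up to 0.159). The summed B cell markers were likewise highest in replicate 2 under both labels, at 13804 TPM in the KO-labelled library and 11234 TPM in that labelled WT; whether they account for the Gpr18 values was not tested. Gpr18 lies on chromosome 14 at 121911434 to 121915888, inside Ubac2, which runs on the other strand, with no exon of Ubac2 over its own.

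Gpr171, an orphan receptor described on T cells, had 37.0, 50.3 and 39.8 TPM in KO-labelled libraries, against 25.7, 28.0 and 26.4 TPM in WT-labelled ones. The groups did not overlap, and the values labelled WT lay close together. Its log2 fold change was 0.68 ± 0.13 (SE, edgeR adjusted p = 0.0171), and it was not called without KO-labelled replicate 2 or WT-labelled replicate 3 (adjusted p up to 0.0884). The 12 tested T and NK cell markers had a median log2 fold change of -2.69, and their part in the Gpr171 values was not tested. Gpr171 lies on chromosome 3 at 59096448 to 59101821, in a row with P2ry14, P2ry13 and P2ry12 inside Med12l, which runs on the other strand.

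The remaining lipid receptors did not pass. P2ry10 and Gpr174, both receptors for lysophosphatidylserine, had log2 fold changes of 0.16 ± 0.12 and -0.17 ± 0.14 (SE, edgeR adjusted p = 0.441 and 0.475), at 89.2 ± 7.12 and 35.5 ± 4.09 TPM in KO-labelled libraries and 81.1 ± 14.4 and 40.4 ± 7.87 TPM in WT-labelled ones (SD, n = 3). Gpr34, a receptor for the same lipid, had 1.08, 1.13 and 1.07 TPM in KO-labelled libraries, against 2.22, 2.99 and 3.05 TPM in WT-labelled ones. Its groups did not overlap, yet it did not pass (log2 fold change -1.22 ± 0.41, edgeR adjusted p = 0.0978), on 16 to 19 counts per KO-labelled library and 34 to 50 per WT-labelled library.

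Within the lysophosphatidic acid receptors the members stood on both sides. Lpar5 had a log2 fold change of 0.58 ± 0.31, Lpar6 of -0.43 ± 0.16, Lpar3 of -0.48 ± 0.58 and Lpar1 of -1.53 ± 0.77, and none of them passed (edgeR adjusted p = 0.252, 0.133, 0.631 and 0.236). Lpar6 passed once the block was added (blocked adjusted p = 0.0197); it lies inside Rb1 and shares up to 209 bases of exon with it, on the other strand. Lpar4 had 1 count in 1 KO-labelled library and was at 0 elsewhere. Gpr55, a receptor for lysophosphatidylinositol, had a log2 fold change of 0.53 ± 0.30 (edgeR adjusted p = 0.279).

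**Figure D3:**
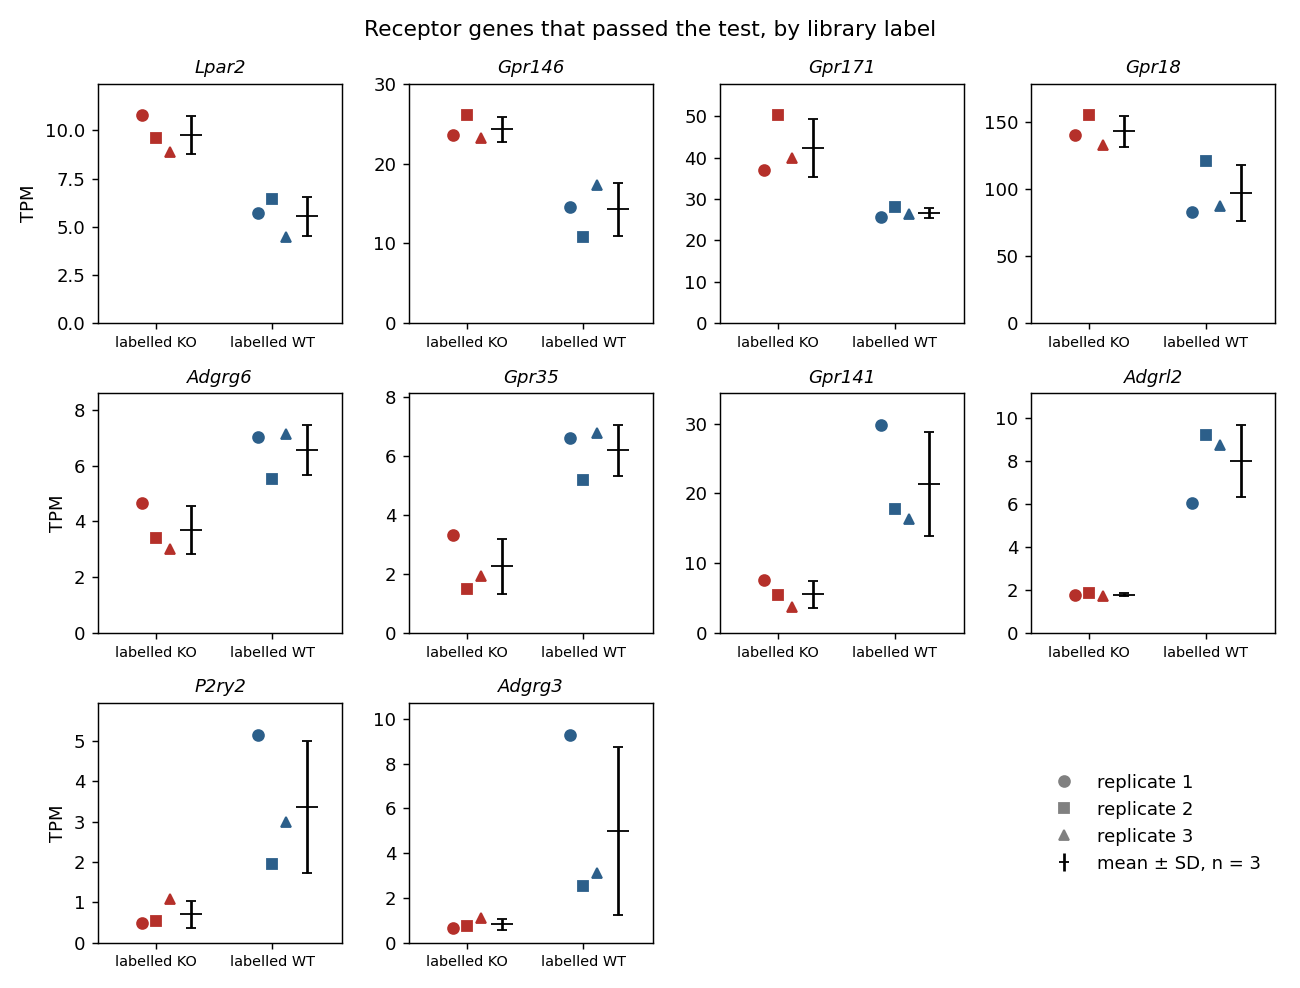
TPM of 10 of the 11 receptor genes that passed the test, in each KO-labelled library (left) and labelled WT (right), with the marker shape giving the replicate number and the bars the mean ± SD (n = 3). The groups overlap in none of the panels; Adgrg3 reaches 9.30 TPM in WT-labelled replicate 1 and 2.55 and 3.14 TPM in the other WT-labelled libraries.

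Proton-sensing receptors respond to acid outside the cell. Gpr65, one of them, had 20.2, 18.2 and 19.7 TPM in KO-labelled libraries, against 25.8, 25.6 and 36.9 TPM in WT-labelled ones. The groups did not overlap, but Gpr65 did not pass (log2 fold change -0.59 ± 0.18, edgeR adjusted p = 0.0730), and passed once the block was added (blocked adjusted p = 0.0191). Gpr4, which is known from endothelium, had 2, 9 and 6 counts in KO-labelled libraries and 13, 14 and 3 in WT-labelled ones, and was not tested.

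Of the 7 nucleotide P2Y receptors 6 were tested; P2ry2 was lower in KO-labelled libraries, as 4.81% of all tested genes were, and 5 did not pass. P2ry2, which binds ATP and UTP, had 0.480, 0.540 and 1.09 TPM in KO-labelled libraries, against 5.16, 1.95 and 3.00 TPM in WT-labelled ones. The groups did not overlap. Its log2 fold change was -2.23 ± 0.55 (SE, edgeR adjusted p = 0.0423) on 11, 12 and 28 counts in KO-labelled libraries and 128, 46 and 73 in WT-labelled ones, and it was not called without KO-labelled replicate 1 or 2, or WT replicate 1 or 3 (adjusted p up to 0.158).

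P2ry6, the UDP receptor, lies next to P2ry2 on chromosome 7, with 21069 bases between them. It had 6.16, 2.92 and 4.04 TPM in KO-labelled libraries, against 19.2, 6.88 and 18.1 TPM in WT-labelled ones. The groups did not overlap, but WT-labelled replicate 2 was closer to the KO-labelled libraries than to the others of its label. P2ry6 did not pass (log2 fold change -1.74 ± 0.46, edgeR adjusted p = 0.0594) and did once the block was added (blocked adjusted p = 0.00145), or without WT-labelled replicate 2 (adjusted p = 0.00518).

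P2ry14, a receptor for UDP-glucose, had 2.88, 1.3 and 1.92 TPM in KO-labelled libraries, against 7.34, 5.36 and 4.46 TPM in WT-labelled ones. It did not pass, with a log2 fold change of -1.52 ± 0.42 (edgeR adjusted p = 0.0600, blocked adjusted p = 0.0245). The ADP receptors P2ry13, P2ry12 and P2ry1 had log2 fold changes of -1.08 ± 0.46, -0.29 ± 0.61 and -1.19 ± 0.56 without passing (edgeR adjusted p = 0.184, 0.801 and 0.209). P2ry13 overlapped between the labels, at 3.38 to 6.39 TPM in KO-labelled libraries and 5.54 to 16.6 TPM in WT-labelled ones, and passed once the block was added (blocked adjusted p = 0.0107). Within the row on chromosome 3, Gpr171 was higher in KO-labelled libraries while P2ry14, P2ry13 and P2ry12 had log2 fold changes below 0.

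Adhesion receptors made up 21 of the genes; 12 were tested, 3 fell in KO-labelled libraries, none rose and 9 did not pass, beside the 4.81% of all tested genes that fell. Adgrl2, the latrophilin 2 gene whose product binds teneurins and FLRT proteins on other cells, had 1.77, 1.85 and 1.72 TPM in KO-labelled libraries, against 6.07, 9.20 and 8.73 TPM in WT-labelled ones. The spread in KO-labelled libraries was small, 1.78 ± 0.07 TPM (SD, n = 3), and the groups lay far apart. Its log2 fold change was -2.12 ± 0.19 (SE, edgeR adjusted p = 6.63e-04). Among the 11 genes called, Adgrl2 alone was called in each of the 6 fits without 1 library, with log2 fold changes between -2.28 and -2.0 and adjusted p up to 0.00874.

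In WT-labelled replicates 1, 2 and 3, beside these Adgrl2 values, B cell markers summed to 7150, 11234 and 8484 TPM, neutrophil markers to 36375, 11139 and 3310 TPM, and monocyte and macrophage markers to 9121, 4216 and 9867 TPM. Their part in the Adgrl2 difference was not tested. Adgrl2 lies on chromosome 3 at 148815586 to 148989096 and shares up to 202 bases of exon with the antisense gene Gm43573. No strand-marking step is stated for the libraries, so reads of overlapping exons on opposite strands cannot be told apart.

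Adgrg3, an adhesion receptor of granulocytes, had 0.650, 0.740 and 1.09 TPM in KO-labelled libraries, against 9.30, 2.55 and 3.14 TPM in WT-labelled ones. Here WT-labelled replicate 1 stood well above the others. The log2 fold change was -2.63 ± 0.55 (SE, edgeR adjusted p = 0.0260), and -1.87 without that library, when it was not called. It was not called either without any 1 KO-labelled library (adjusted p up to 0.125). WT-labelled replicate 1 was also the highest in neutrophil markers, by the sums given above, and in T and NK cell markers (1107 TPM). Between WT-labelled replicates 2 and 3 the order differed. There the neutrophil sums were 11139 and 3310 TPM and Adgrg3 was at 2.55 and 3.14 TPM. The part of these markers in the Adgrg3 difference was not tested. Its neighbours in the row on chromosome 8, Adgrg1 and Adgrg5, had log2 fold changes of -0.66 ± 0.41 and -1.50 ± 0.59 and did not pass (edgeR adjusted p = 0.335 and 0.141).

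Adgrg6, known for its part in myelination, had 4.66, 3.39 and 3.00 TPM in KO-labelled libraries, against 7.02, 5.53 and 7.15 TPM in WT-labelled ones, without overlap. Its log2 fold change was -0.79 ± 0.19 (SE, edgeR adjusted p = 0.0380), and it was not called without KO-labelled replicate 2 or 3, or WT replicate 1 or 3 (adjusted p up to 0.146). It lies on chromosome 10 at 14402583 to 14545723 and shares 441 bases of exon with the antisense gene Gm46212.

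Adgre5, which encodes CD97, the receptor for the complement regulator CD55, was the most abundant of all 86 genes and did not pass (log2 fold change 0.20 ± 0.10, edgeR adjusted p = 0.229); it shares up to 230 bases of exon with Ddx39. Cd55 itself averaged 590 ± 39.7 TPM in KO-labelled libraries and 626 ± 155 TPM in WT-labelled ones (SD, n = 3, edgeR adjusted p = 0.859). Adgre4, a macrophage receptor of the same subfamily, had 4.56, 2.01 and 2.84 TPM in KO-labelled libraries, against 7.30, 3.98 and 11.1 TPM in WT-labelled ones. It did not pass (log2 fold change -1.24 ± 0.45, edgeR adjusted p = 0.130) and passed once the block was added (blocked adjusted p = 0.0139). Adgrl1, or latrophilin 1, had a log2 fold change of -0.07 ± 0.28, where its relative Adgrl2 had -2.12; its sign turned without KO-labelled replicate 2 (0.03) or WT replicate 1 (0.27).

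**Figure D4:**
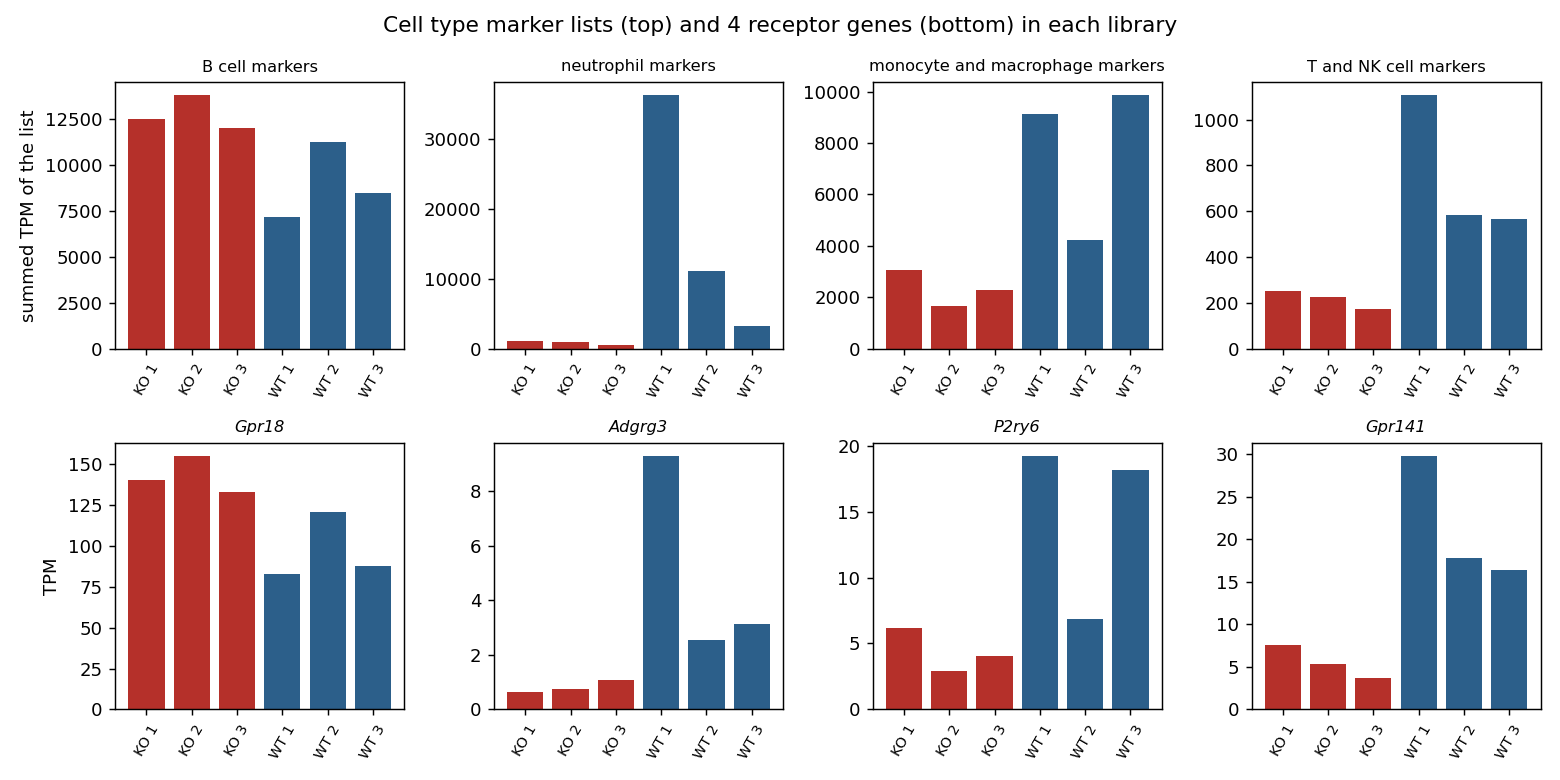
Summed TPM of the B cell, neutrophil, monocyte and macrophage, and T and NK cell marker lists (top) and TPM of Gpr18, Adgrg3, P2ry6 and Gpr141 (bottom) in each KO-labelled library (red, left) and WT (blue, right). The neutrophil sum and Adgrg3 are both highest in WT-labelled replicate 1, at 36375 and 9.30 TPM. In WT-labelled replicates 2 and 3 the neutrophil sums are 11139 and 3310 TPM and Adgrg3 is at 2.55 and 3.14 TPM.

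The other 43 Gpr genes held 17 tested members, of which Gpr146 rose and Gpr141 and Gpr35 fell in KO-labelled libraries, where 4.55% of all tested genes rose and 4.81% fell. Gpr146, an orphan receptor studied in liver for its effect on plasma cholesterol, had 23.6, 26.1 and 23.2 TPM in KO-labelled libraries, against 14.6, 10.8 and 17.4 TPM in WT-labelled ones. The groups did not overlap. Its log2 fold change was 0.77 ± 0.18 (SE, edgeR adjusted p = 0.0381), and it was not called without any 1 KO-labelled library or WT-labelled replicate 1 (adjusted p up to 0.149). It lies on chromosome 5 at 139377697 to 139396415, inside 3110082I17Rik on the other strand, with no exon shared.

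Gpr141, an orphan receptor of myeloid cells, had 7.55, 5.38 and 3.66 TPM in KO-labelled libraries, against 29.8, 17.8 and 16.4 TPM in WT-labelled ones. The lowest WT-labelled library was above the highest labelled KO. The log2 fold change was -1.94 ± 0.32 (SE, edgeR adjusted p = 0.0190), and the call was lost only without KO-labelled replicate 2 among the 6 fits without 1 library (adjusted p = 0.101). Gpr141 lies on chromosome 13 at 19749680 to 19824336, with no exon of another gene over its own. Beside it, 4 of the 13 monocyte and macrophage markers and 2 of the 13 neutrophil markers were lower in KO-labelled libraries, with median log2 fold changes of -1.60 and -4.16, and 12 and 7 of them with the replicate block; their part was not tested.

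Gpr35, for which the tryptophan metabolite kynurenic acid is a proposed ligand, had 3.32, 1.51 and 1.95 TPM in KO-labelled libraries, against 6.60, 5.19 and 6.79 TPM in WT-labelled ones. It fell without overlap, with a log2 fold change of -1.03 ± 0.26 (SE, edgeR adjusted p = 0.0464), close to the threshold. The call was lost without KO-labelled replicate 2 or 3, or WT replicate 1 or 3 (adjusted p up to 0.134). Gpr157 had 6.60, 4.80 and 4.87 TPM in KO-labelled libraries, against 13.4, 6.61 and 14.4 TPM in WT-labelled ones. It did not pass (log2 fold change -1.04 ± 0.31, edgeR adjusted p = 0.0836) and passed once the block was added (blocked adjusted p = 0.00901).

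**Figure D5:**
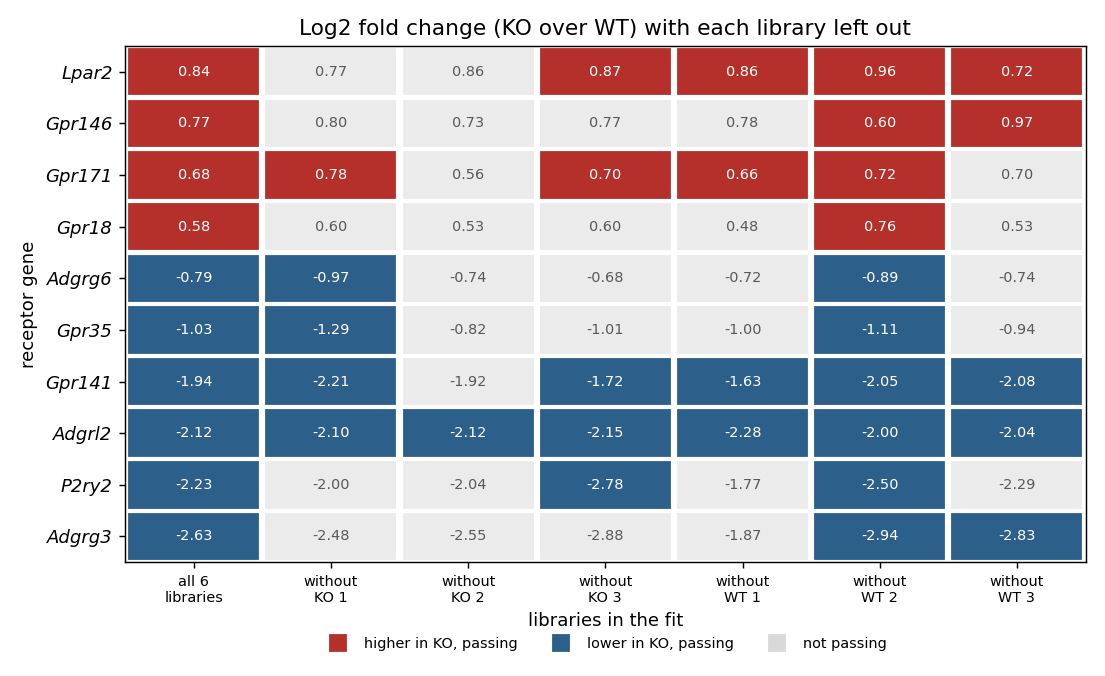
Log2 fold change (KO over WT labels) of 10 of the 11 called receptor genes with all 6 libraries and with each library left out in turn; coloured cells passed at an adjusted p under 0.05 and grey cells did not. Adgrl2 passes in every column and Gpr141 in all but the one without KO-labelled replicate 2.

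Gpr107 and Gpr108, both of the Golgi apparatus, had log2 fold changes of -0.22 ± 0.09 and 0.10 ± 0.09. Gpr155 and Gpr137, both lysosomal, had 0.04 ± 0.09 and 0.33 ± 0.15, and Gpr89, a Golgi pH regulator, had 0.04 ± 0.16. None passed (edgeR adjusted p = 0.163, 0.553, 0.817, 0.194 and 0.911, in this order). Gpr155 and Gpr89 changed sign when 1 library was left out. Gpr137 shares up to 517 bases of exon with Bad on the other strand, and Gpr89 up to 817 with a neighbouring gene. Gpr180, Gpr19, Gpr162 and Gpr160 had log2 fold changes of 0.12 ± 0.19, 0.06 ± 0.27, -0.45 ± 0.33 and -1.06 ± 0.45 and did not pass either.

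The 38 genes that were not tested had means up to 0.347 TPM, and 31 of the 86 never went above 10 counts in a library. Gpr27, an orphan receptor, was the highest of the untested genes. It had 0 counts in each KO-labelled library and 29, 14 and 3 in WT-labelled ones, at least 4.97-fold lower than in WT-labelled libraries when set against a floor of 3 counts per library, the bound on an observed 0 from counting error alone. Without WT-labelled replicate 1 this bound was 2.78-fold. DESeq2 called it (adjusted p = 0.0067), but edgeR without the low-count filter did not. Adgrf5, an endothelial and lung epithelial receptor, was tested and rested on 1 library under each label, with 14, 1 and 189 counts in KO-labelled libraries and 70, 2 and 2 in WT-labelled ones. As each library was left out in turn, the log2 fold change of Adgrf5 ran from -1.64 to 5.03. The summed endothelial and stromal markers were also highest in KO-labelled replicate 3. The sum was 227 TPM there, 136 and 155 TPM in replicates 1 and 2, and 93.2 to 108 TPM in WT-labelled libraries. In KO-labelled replicate 3 the stromal genes Dcn, Col1a2 and Col1a1 had 53.7, 36.8 and 21.4 TPM. The endothelial marker Pecam1 had 105 TPM there, below the 129 and 152 TPM of KO-labelled replicates 1 and 2. Cdh5 was highest there (2.75 TPM), Kdr and Tek in WT-labelled replicate 1 (5.03 and 0.66 TPM), and Stab2 in WT-labelled replicate 3 (10.7 TPM). Outside KO-labelled replicate 3, Pecam1 made up most of the sum in each library. Of the 7 tested markers of this list Pecam1 alone passed, higher in KO-labelled libraries (edgeR adjusted p = 0.0334). With the replicate block 1 marker was higher and 2 were lower. The part of these markers in the Adgrf5 values was not tested. Adgrg2 had 21 counts in KO-labelled replicate 3 and 0 in the other 5 libraries.

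Of the 48 tested genes, 11 were lowest in replicate 2, or tied there with replicate 3, under both labels. By the same rule 14.5% of all tested genes were. Among the 11 were Gpr65, P2ry6, Gpr157, P2ry13, Adgre4, Gpr35, Adgrg1, Gpr160, Adgrf5 and Adgra3. Gpr160 and Adgrf5 were tied between WT-labelled replicates 2 and 3, at 2.78 and 0.04 TPM. The summed monocyte and macrophage markers were lowest in replicate 2 under both labels as well, at 1644 TPM in the KO-labelled library and 4216 TPM in that labelled WT. This pattern was looked for after the values were seen and was not tested.

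Transcript estimates were read for the 38 genes above 1 TPM, as a description. For 10 of them 1 transcript is listed, among them Gpr18, Gpr171, Lpar2, Lpar6 and P2ry6. Of the 28 with more, the leading transcript held on average over 90% of the counts under both labels in 2 genes. That of Gpr146, NM_030258, held 100.0% in KO-labelled libraries and 97.2% ± 4.08 (SD, n = 3) in WT-labelled ones, and that of P2ry10, NM_172435, held 93.1% ± 1.82 in KO-labelled libraries and 94.5% ± 2.79 in WT-labelled ones. Adgrl2 has 40 listed transcripts. The one taken as leading, XM_006502440, held 0%, 0% and 5.59% of the counts in KO-labelled replicates 1, 2 and 3. It therefore did not lead in KO-labelled replicates 1 and 2. In WT-labelled libraries it held 13.2% ± 0.557. The leading Adgre5 transcript, NM_001163029, held 74.9% ± 7.59 in KO-labelled libraries and 65.1% ± 4.89 in WT-labelled ones. Mean shares differed by over 20 percentage points for P2ry14, P2ry2, Gpr34 and Adgrg5, all at low counts; Adgrg5 had 17, 16 and 6 counts in KO-labelled libraries, against 57, 22 and 35 in WT-labelled ones, and its leading transcript NM_001145972 held 0% in KO-labelled libraries and 86.6% ± 12.8 in WT-labelled ones.

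Genes that make, remove or bind ligands of these receptors, other purinergic receptors and the signalling proteins below them were listed as 76 genes, of which 66 were tested. In KO-labelled libraries 6 rose, 7 fell and 53 did not pass, with a median log2 fold change of -0.20, where 4.55% of all tested genes rose and 4.81% fell. With the replicate block 9 rose and 15 fell, where 7.96% of all tested genes rose and 12.8% fell. Without 1 library the number called lay between 2 (without KO-labelled replicate 2) and 23 (without WT-labelled replicate 2); it was 4 and 7 without KO replicates 1 and 3, and 9 and 7 without WT replicates 1 and 3. The adenosine receptor gene Adora2a, which signals the breakdown product of extracellular ATP, had 73.9, 66.3 and 66.3 TPM in KO-labelled libraries, against 31.9, 31.8 and 32.1 TPM in WT-labelled ones. It rose with little spread under either label, by 1.08 ± 0.08 on the log2 scale (edgeR adjusted p = 3.77e-04), and was called in all 6 fits without 1 library.

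Enpp1, an ectoenzyme that hydrolyses ATP, averaged 16.1 ± 0.697 TPM in KO-labelled libraries and 10.3 ± 0.519 TPM in WT-labelled ones (SD, n = 3), a rise of 0.66 ± 0.10 on the log2 scale (edgeR adjusted p = 0.00703), also called in all 6 fits. Bst1, which encodes the NAD-cleaving enzyme CD157, averaged 3.76 ± 0.691 TPM in KO-labelled libraries and 20.8 ± 9.0 TPM in WT-labelled ones, and had a log2 fold change of -2.45 ± 0.35 (edgeR adjusted p = 0.00901); it was not called without KO-labelled replicate 2 (adjusted p = 0.0585). Entpd1, which encodes the ATP-degrading enzyme CD39, had 20.02 ± 3.16 TPM in KO-labelled libraries and 31.4 ± 7.20 TPM in WT-labelled ones and did not pass (edgeR adjusted p = 0.0949, blocked adjusted p = 0.00395).

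The G protein subunits on the list moved in both directions. Gnaq, Gnb1 and Gna12 had log2 fold changes of -0.61 ± 0.09, -0.45 ± 0.08 and -0.79 ± 0.16 and fell (edgeR adjusted p = 0.00781, 0.0187 and 0.0234), while Gng2 rose by 0.44 ± 0.09 (adjusted p = 0.0233). Gna11 also rose, by 0.44 ± 0.10, and Gnb4 fell, with a log2 fold change of -0.93 ± 0.23 (edgeR adjusted p = 0.0362 and 0.0456). Among the fits without 1 library, both were called only without WT-labelled replicate 2 (adjusted p up to 0.1265 and 0.145 in the others). Grk6, a kinase that switches off active receptors, rose by 0.64 ± 0.12 (adjusted p = 0.0177). Gnaq was not called without KO-labelled replicate 2 (adjusted p = 0.0564), Gna12 without any 1 KO-labelled library (adjusted p up to 0.109), Gnb1 without any 1 KO-labelled library or WT-labelled replicate 3 (adjusted p up to 0.103), and Gng2 and Grk6 without KO-labelled replicate 1 or 2 or WT replicate 3 (adjusted p up to 0.115 and 0.0988).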

How the data were processed

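RNA of enriched splenic B cells was captured with oligo(dT) and copied with random hexamers, per the labels' protocols; no strand-marking step is stated. The authors deposited estimated counts per gene and transcript, not scaled to depth, with FPKM and TPM, per the file headers. Tools listed in the submitters' processing notes, without their roles, are RSEM 1.3.1, HISAT2 2.0.4 and Bowtie2 2.2.5, and the build is mm10. A further 12 columns of normalized values, over the gene and transcript tables, were not used. FPKM values were not analysed here.

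Estimated counts, of which 5.87% were not whole, were rounded. edgeR 4.0.16 (filterByExpr, TMM, robust quasi-likelihood test on the label alone) was run over the whole table, leaving 12234 of 16511 genes; standard errors came from the F statistic. DESeq2 1.42.0, RLE factors, other filters, a replicate block and fits without each library were alternatives. The test was first tested on simulated data, with changes given to genes averaging 1 CPM or more. It recovered 22.0%, 56.8% and 89.6% of changes of 1.5-, 2- and 4-fold, with 9 false calls among 12234 genes. The simulated libraries were drawn independently, without deviations shared between libraries.

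Same-numbered libraries of the 2 labels deviated together across genes (r = 0.133, 0.362 and 0.170). This pairing comes from the data, not the labels. Replicates differed by more than sampling noise (chi-square per degree of freedom 11.8 to 45.8). The named genes are the members above 1 TPM or called, the 3 highest of each family, and Ffar1. Also named are up to 8 called genes of the ligand and signalling list by smallest p. Cd55, Entpd1, Gna11, Gnb4, Gpr27, Adgrf5, Adgrg2, Gpr4, Lpar4 and Lpar1 were chosen after their values were seen. One member is counted in the totals but not reported here. The members and lists were chosen with earlier results of these data known. Gene IDs of all 86 members matched RefSeq (GRCm38.p6, the same assembly as mm10). The floor of 3 counts covers counting error alone, because PCR copies of one molecule cannot be told from separate molecules.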

Additional observations from a re-analysis of the deposited data

How the results depend on the processing

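Over all tested genes, 1146 were called; the replicate block gave 2535 and DESeq2 2210, and fits without 1 library between 264 and 2030. The receptor genes called, 11, were 18 with the block, 17 with DESeq2, and 1 to 15 without 1 library. All 11 were called with the block, with DESeq2, with RLE size factors, without the low-count filter and in genes averaging 1 CPM or more. DESeq2 added Gpr65, P2ry6, Gpr157, Gpr27, P2ry14 and Adgre4. Adding the symbols with a further letter left the count at 11. The ligand and signalling list, with 13 called, had 24 with the block, 21 with DESeq2 and 2 to 23 without 1 library. The number of receptor genes above 1 TPM, 38, was 44 and 34 at thresholds of 0.5 and 2 TPM and 37 to 38 without 1 library. Signs changed without 1 library for 6 genes above 1 TPM that did not pass, whose log2 fold changes ranged from -0.039 to 0.12 (Gpr155), -0.10 to 0.13 (Gpr89), -0.0014 to 0.26 (Gpr180), -0.090 to 0.22 (Gpr19), -0.28 to 0.27 (Adgrl1) and -0.61 to 0.57 (P2ry12). Of the tested genes at or under 1 TPM, Adgrf5 (-1.64 to 5.03), Adgra3 (-1.09 to 0.39), Gpr82 (-0.63 to 0.10) and Gpr52 (-1.32 to 0.06) also crossed 0. The bound for Gpr27 ranged from 2.78 to 6.96 without 1 WT-labelled library, an alternative chosen after seeing the data. Each fit without 1 library also holds fewer libraries. The cause of these moves was not tested. Scaling moved the median of all genes by less than 0.1 on the log2 scale. Among the receptor and ligand genes named in the text, the block changed no other call than those given. At this depth, the 38 receptor genes that did not pass the low-count filter had too few counts to be tested. Why their counts were low was not tested.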
